A study of Mus musculus with 6 samples.

Results

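The 10 genes described here encode proteins through which a cell takes up lipid: the lipoprotein receptors Vldlr and Lrp1, the scavenger receptors Cd36, Msr1 and Scarb1, lipoprotein lipase (Lpl), the fatty acid-binding proteins Fabp3 and Fabp5, and the fatty acid transport proteins Slc27a1 and Slc27a4. They were chosen by symbol, and all 10 were found among the 16179 genes of the expression table. Microglia, the resident macrophages of the brain, were sorted from hippocampi of 10-month-old male mice of the progranulin knockout strain B6.129S4(FVB)-Grntm1.1Far/Mmja. Live cells sorted as CD11b+CD45lo were parted by BODIPY, a dye of neutral lipid, into a lipid droplet-low (BODIPY-low, here LD-low) and a lipid droplet-high (BODIPY-high, here LD-high) fraction, with 3 libraries each. Each library was made from the pooled hippocampi of 2 mice, and about 10000 cells were collected. The mice of both groups carry the knockout, wild-type libraries were not analysed here, and the comparison is between fractions of knockout microglia. The labels do not say that same-numbered LD-low and LD-high libraries came from the same mice, and p-values here reflect no more than the spread of these 6 libraries.

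Lipids reach a cell by several routes. Lipoprotein particles are bound and taken in whole by lipoprotein receptors or by scavenger receptors, while lipoprotein lipase cuts their triglyceride outside the cell and frees fatty acids. Free fatty acids then cross the membrane with the help of CD36 and of the SLC27 proteins, which also join them to coenzyme A, and small binding proteins of the FABP family carry them through the cytosol. In macrophages and microglia these proteins are best known from the clearance of apolipoprotein particles, myelin debris and modified LDL.

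Depth and sort purity bear on all values. Reads recovered from the deposited values came to between 24982215 and 34899425 per library. The 10 microglia markers (P2ry12, Tmem119, Cx3cr1 and 7 others) summed to between 1564427 and 1818642 normalised reads in LD-low and between 1413286 and 1559588 in LD-high libraries, without overlap. None was at 0, Cx3cr1 and Itgam fell, and the other 8 did not pass. Markers of other cells differed between the groups, most of all by ratio those of choroid plexus and of neutrophils. The 10 markers of choroid plexus and ependyma, Ttr among them, summed to 3784 to 18826 normalised reads in LD-low and 152699 to 267159 in LD-high libraries, and 10 of 10 rose. The 10 neutrophil markers summed to 29779 to 79869 in LD-low and 204 to 2307 in LD-high libraries, and 9 of 10 fell. Sums of smaller marker lists ran from 30.9 to 37.1 and from 195 to 225 for mural cells (5 of 6 genes in the table, Higd1b at 0 in LD-low libraries), and from 26.9 to 32.0 and from 131 to 148 for neurons. For astrocytes they ran from 7186 to 8242 and from 8167 to 10371, and for oligodendrocytes from 4627 to 5201 and from 5905 to 7227, LD-low libraries first. Of the tested genes, 1 of 3 rose for mural cells, 1 of 4 for neurons, 2 of 7 for astrocytes and 0 of 5 for oligodendrocytes, and none fell. The mural gene was Vtn, at 13.5 ± 9.27 and 151 ± 46.3 normalised reads (SD, n = 3 each). Grn, the targeted gene, had between 416 and 990.1 normalised reads in LD-low and between 468 and 1614 in LD-high libraries, and where along the gene these reads lie was not analysed here. In bulk RNA, fewer cells of a type and less RNA per cell cannot be told apart.

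Of the 10 uptake genes, Vldlr, Fabp3 and Slc27a1 were higher in LD-high libraries, Cd36 was lower, and the other 6 did not pass the test (limma, Benjamini-Hochberg adjusted p under 0.05 over 12821 tested genes). Over all tested genes 9.79% were called higher and 3.52% lower. The median log2 fold change of the 10 was -0.098, against -0.015 over all tested genes. All 3 LD-high libraries lay above all 3 LD-low ones in 3 of the 10 (18.0% of all tested genes) and below them in 2 (13.4%). Fold changes are LD-high minus LD-low on the log2(value + 1) scale. All 10 genes passed the minimum mean of 10 normalised reads, taken over all 6 libraries. Vldlr passed it through the LD-high group alone, with a mean of 4.17 in the LD-low and 195 in the LD-high group.

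**Figure D1:**
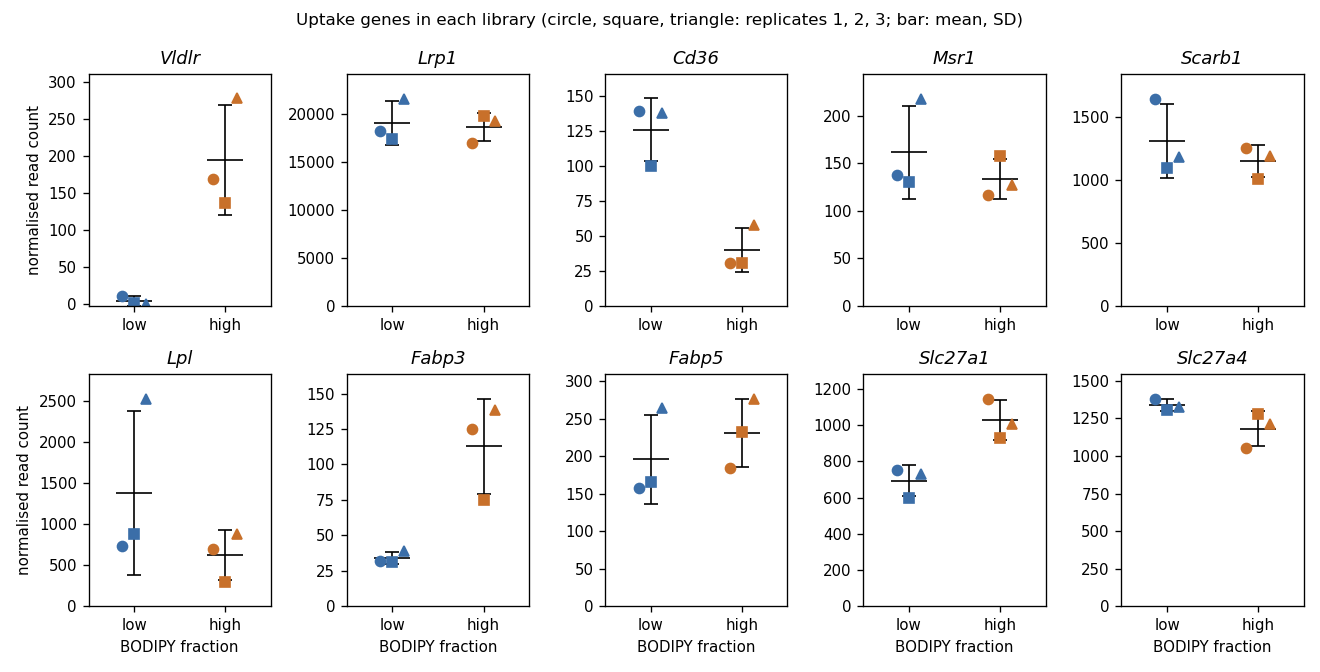
Normalised read counts (linear axis) of the 10 uptake genes in LD-low (blue) and LD-high (orange) libraries, with mean and SD of 3 libraries as bars. The axis starts at 0, but below 0 for Vldlr, where the SD of the LD-low group exceeds its mean. The groups are apart for Vldlr, Fabp3 and Slc27a1 (high above low) and for Cd36 and Slc27a4 (high below low), and they overlap for the other 5 genes.

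**Figure D2:**
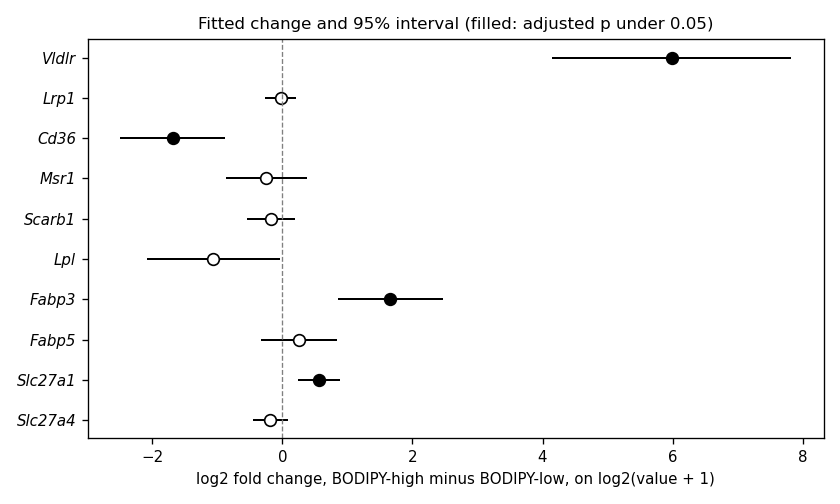
Log2 fold change of each uptake gene with its 95% interval from limma, filled where the adjusted p is under 0.05. Vldlr stands at 5.99, Fabp3 at 1.66, Slc27a1 at 0.57 and Cd36 at -1.68, and the open symbols are the 6 genes that did not pass.

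Vldlr, the very low density lipoprotein receptor, binds triglyceride-rich particles carrying apolipoprotein E as well as the signalling protein reelin (GRCm38 chromosome 19, 27216484 to 27254231). It had 11.4, 1.07 and 0 normalised reads in LD-low replicates 1, 2 and 3, and 169.6, 137 and 278 in LD-high replicates 1, 2 and 3. The lowest LD-high library was thus above the highest LD-low one, and the gene was close to the detection limit in the LD-low fraction, where it rests on 10, 1 and 0 reads. The 0 in LD-low replicate 3 allows up to 2.78 normalised reads, the worth of 3 reads there. The fitted log2 fold change was 5.99 (limma, SE 0.83, adjusted p = 8.84e-04). Pooled over each group, 11 against 651 reads gave a ratio of 53.4 (95% exact interval 29.7 to 108, counting error only). With 1 library left out the log2 fold change lay between 5.21 and 7.03, the latter without LD-low replicate 1, which holds 10 of the 11 reads.

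LD-low replicate 1 was also the LD-low library with the largest sum of choroid plexus markers, 18826 against 3784 and 7332 in replicates 2 and 3. LD-low replicate 3, with no Vldlr read, had more of these markers than replicate 2, with 1 read. Among LD-high libraries the order of Vldlr (replicates 3, 1, 2) was that of the marker sum (267159, 254747 and 152699). The part of these markers' source in the Vldlr value was not tested.

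Lrp1, a large endocytic receptor for apolipoprotein E particles and many other ligands (chromosome 10, 127538161 to 127621148), had 18205, 17339 and 21596 normalised reads in LD-low replicates and 16978, 19736 and 19229.7 in LD-high replicates 1, 2 and 3. The groups overlapped throughout. The log2 fold change was -0.027 (SE 0.10, adjusted p = 0.898), with a 95% interval from -0.25 to 0.19.

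Levels between genes are compared per kilobase of annotated exon. Lrp1 stood at 1075 ± 127 normalised reads per kilobase in LD-low and 1053 ± 82.9 in LD-high libraries (SD, n = 3 each), above the other 9 genes in each of the 6 libraries. Vldlr stood at 0.414 ± 0.627 and 19.4 ± 7.33. The level of Lrp1 per kilobase was 56.9, 81.8 and 39.3 times that of Vldlr in LD-high replicates 1, 2 and 3. No such ratio is given for the LD-low group, where Vldlr rests on 10, 1 and 0 reads.

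Cd36, a scavenger receptor that binds oxidised LDL and aids the entry of long-chain fatty acids (chromosome 5, 17781690 to 17888801), fell. Its values were 139, 100.2 and 138 normalised reads in LD-low replicates 1, 2 and 3, and 31.1, 30.6 and 58.0 in LD-high replicates. The highest LD-high library lay well below the lowest LD-low one. The fitted log2 fold change was -1.68 (limma, SE 0.36, adjusted p = 0.0110), and the mean was 3.16 times as high in the LD-low group. Without LD-low replicate 3 the call was lost (log2 fold change -1.61, adjusted p = 0.0588).

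Neutrophil and monocyte markers fell in the same libraries. The 7 monocyte markers summed to between 6223 and 13095 normalised reads in LD-low and between 429 and 1282 in LD-high libraries. Chil3 made up most of that sum in LD-low libraries (mean 7410 of 8840) and F13a1 in LD-high libraries (mean 489 of 795). Of the 5 tested, 3 fell (Ly6c2, Chil3 and Hp), while Ccr2 and F13a1, the latter also a border macrophage marker, had log2 fold changes of -0.92 and 0.55 (adjusted p = 0.194 and 0.213). Vcan was at 0 in all LD-low libraries. LD-high replicate 3, which had the most Cd36 of its group, had the smallest sums of neutrophil markers (204) and of monocyte markers (429) of the 6 libraries. Of 7 endothelial markers, Slco1a4 alone passed, rising by 2.12 on the log2 scale. The other 6 had log2 fold changes from -0.55 (Flt1) to 0.37 (Cdh5), with adjusted p between 0.332 and 0.974. The endothelial markers summed to between 749 and 1075 normalised reads in LD-low and between 1185 and 1204 in LD-high libraries, without overlap. Within these sums Slco1a4 had 101 ± 21.3 and 457 ± 156 normalised reads (SD, n = 3 each), and each of the other 6 overlapped between the groups. The part of these cells in the Cd36 value was not tested further.

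Msr1, the class A scavenger receptor of macrophages that takes up modified LDL (chromosome 8, 39581685 to 39642673), had 137, 130.0 and 218 normalised reads in LD-low replicates and 117, 157 and 127 in LD-high replicates 1, 2 and 3. LD-low replicate 3 was the highest library and the others overlapped. The log2 fold change was -0.24 (SE 0.27, adjusted p = 0.623), with a 95% interval from -0.85 to 0.36.

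Scarb1, or SR-BI, is the receptor for high density lipoprotein and moves cholesteryl ester and free cholesterol across the membrane (chromosome 5, 125277087 to 125341094). It had 1648, 1099 and 1185 normalised reads in LD-low replicates and 1254, 1009 and 1194 in LD-high replicates 1, 2 and 3. LD-low replicate 1 stood above the rest, and its omission brought the log2 fold change from -0.17 (SE 0.16, adjusted p = 0.555) to 0.0083 (adjusted p = 0.979). The interval of the fit to all 6 libraries ran from -0.52 to 0.18.

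Lpl, the secreted lipase that releases fatty acids from lipoprotein triglyceride and is counted among the genes of disease-associated microglia (chromosome 8, 68880491 to 68907448), varied widely between libraries. Its values were 731, 878 and 2525 normalised reads in LD-low replicates 1, 2 and 3. LD-high replicates 1, 2 and 3 had 694, 293 and 879.5. LD-low replicate 3 was 2.87 times the next highest library, and the remaining 5 libraries overlapped between groups. The SD was 72.3% of the mean in the LD-low group, second among the 10 genes to Vldlr, and 48.1% in the LD-high group, the largest of the 10. The fitted log2 fold change of Lpl, -1.06 (SE 0.46, adjusted p = 0.167), did not pass, and without LD-low replicate 3 it was -0.51 (adjusted p = 0.515). Without LD-high replicate 2, the lowest library, it was -0.59 (adjusted p = 0.424). Without LD-low replicate 1 it was -1.40 and without LD-high replicate 3 it was -1.38 (limma adjusted p = 0.0905 and 0.134). No leave-out of 1 library passed. The 95% interval of the fit to all 6 libraries, not adjusted for the number of genes, ran from -2.07 to -0.044.

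Fabp3, the heart-type fatty acid-binding protein (chromosome 4, 130308595 to 130315463), rose. It had 32.0, 30.9 and 39.0 normalised reads in LD-low replicates 1, 2 and 3, and 125, 74.8 and 138 in LD-high replicates. Each LD-high library lay well above the LD-low group, whose 3 values were close together. The log2 fold change was 1.66 (SE 0.36, adjusted p = 0.0115), and the ratio of the group means was 3.32. Leaving out LD-high replicate 3, the highest, lost the call (log2 fold change 1.49, adjusted p = 0.0623). In the LD-high group Fabp3 had the same order of replicates as the sum of choroid plexus markers (3, 1, 2). In the LD-low group the orders differed (3, 1, 2 for Fabp3 and 1, 3, 2 for the sum, which ran from 3784 to 18826). The part of these markers' source in the rise was not tested.

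Of the 823 exon bases of Fabp3, 81 also belong to Zcchc17 on the other strand and 80 to Gm10570, and the kits do not mark strand. Zcchc17 itself had 554 ± 70.1 and 684 ± 26.0 normalised reads in the 2 groups (SD, n = 3 each), with a limma log2 fold change of 0.31 (adjusted p = 0.192). Processed pseudogenes of both binding proteins, Fabp3-ps1 and Fabp5l2, are annotated in the genome, and how reads shared with such copies were counted is not given in the sources used here. The levels of Fabp3 and Fabp5 carry that uncertainty.

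Fabp5, the epidermal-type fatty acid-binding protein found in macrophages (chromosome 3, 10012548 to 10016607), had 158, 165 and 264 normalised reads in LD-low replicates and 185, 232 and 276 in LD-high replicates 1, 2 and 3. The 2 groups overlapped. The log2 fold change of Fabp5 was 0.26 (SE 0.26, adjusted p = 0.578), with a 95% interval from -0.31 to 0.83. Per kilobase of exon, the level of Fabp3 was 0.879, 0.811 and 0.639 times that of Fabp5 in LD-low replicates 1, 2 and 3, and 2.94, 1.40 and 2.17 times in LD-high replicates. On this scale Fabp5 was the higher of the pair in each LD-low library and Fabp3 in each LD-high library. That order rests on annotated exon lengths of 823 bases for Fabp3 and 3567 for Fabp5, and by read count Fabp5 was the higher in all 6 libraries.

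Slc27a1, or FATP1, a fatty acid transport protein with acyl-CoA synthetase activity (chromosome 8, 71568882 to 71587302), rose by a smaller amount. Its normalised reads were 754, 598 and 730.3 in LD-low replicates 1, 2 and 3, and 1147, 928 and 1007 in LD-high replicates. The groups were apart by a margin of 174 normalised reads. The fitted log2 fold change was 0.57 (limma, SE 0.14, adjusted p = 0.0223) and the ratio of means was 1.48. The call was lost without LD-low replicate 2 or 3 (adjusted p = 0.103 and 0.0584) and without LD-high replicate 1 or 3 (0.0610 and 0.0708), while the log2 fold change stayed between 0.46 and 0.64. In these libraries the median rise of the choroid plexus markers was 4.60 on the log2 scale. Slc27a1 had the order of replicates of their sum in the LD-low group (1, 3, 2) but not in the LD-high group (1, 3, 2 against 3, 1, 2). The part of these markers' source in the Slc27a1 value was not tested.

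Slc27a4, or FATP4, its relative (chromosome 2, 29802634 to 29817522), had 1381, 1307 and 1329 normalised reads in LD-low replicates and 1054, 1282 and 1212 in LD-high replicates 1, 2 and 3. All 3 LD-high values lay below all 3 LD-low values, but the change of -0.18 on the log2 scale (SE 0.11, adjusted p = 0.342) did not pass, with a 95% interval from -0.44 to 0.068. Slc27a4 remained the higher of the pair per kilobase of exon in each library. The level of Slc27a1 was 0.412, 0.346 and 0.416 times that of Slc27a4 in LD-low replicates and 0.822, 0.547 and 0.629 times in LD-high replicates 1, 2 and 3.

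Ordered by mean level per kilobase, LD-low libraries ran from Lrp1 (1075) and Slc27a4 (304) through Scarb1 (154), Lpl (131.5) and Slc27a1 (119) to Fabp5 (54.9), Fabp3 (41.3), Cd36 (35.1), Msr1 (25.5) and Vldlr (0.414). The ranges of neighbours overlapped from Scarb1 to Slc27a1 and again from Fabp5 to Msr1. In LD-high libraries the order was Lrp1 (1053), Slc27a4 (268), Slc27a1 (176), Fabp3 (137), Scarb1 (136), Fabp5 (64.7), Lpl (59.4), Msr1 (21.1), Vldlr (19.4) and Cd36 (11.1). There the range of Fabp3 overlapped those of its neighbours Slc27a1 and Scarb1, which were apart from each other. The range of Vldlr overlapped those of Msr1 and Cd36, which were also apart, and Fabp5 overlapped Lpl. Fabp3 moved from the 7th to the 4th place, Cd36 from the 8th to the 10th and Vldlr from the 10th to the 9th. Both orders and these places rest on annotated exon lengths, which run from 823 bases for Fabp3 to 17717 for Lrp1. The lengths of the transcripts expressed in these libraries were not determined, and other lengths could change the order between genes.

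The promoters of the genes that changed are shown to let the letters upstream of their starts be read beside the values. Windows of 250 bases before a transcription start were taken from RefSeq (GRCm38.p6) for 6 of the 10 members, with Lpl, Msr1, Scarb1 and Fabp5 not matched. The window of Fabp3 is not printed because it lies in part over annotated exons. The window of Cd36 lies within the annotated span of the gene (17781690 to 17888801, minus strand). It thus precedes an internal start and is not upstream of the outermost 5′ end of that gene. Those of Vldlr (chr19:27216234-27216483, plus strand, the first of 2 listed starts), Slc27a1 (chr8:71568621-71568870, plus strand, the first of 3 listed starts) and Cd36 (chr5:17835897-17836146, minus strand) read 5′ to 3′, with matches to the searched motifs in capitals:
Vldlr: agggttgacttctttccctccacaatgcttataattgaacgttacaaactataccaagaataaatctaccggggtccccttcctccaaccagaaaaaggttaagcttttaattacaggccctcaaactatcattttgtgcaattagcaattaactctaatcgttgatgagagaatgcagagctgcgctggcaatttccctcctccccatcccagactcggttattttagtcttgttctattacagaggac
Slc27a1: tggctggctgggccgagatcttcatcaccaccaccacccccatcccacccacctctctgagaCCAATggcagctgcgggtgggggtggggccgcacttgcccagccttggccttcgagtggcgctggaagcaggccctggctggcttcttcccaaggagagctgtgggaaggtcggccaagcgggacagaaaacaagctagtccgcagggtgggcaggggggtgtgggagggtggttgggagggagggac
Cd36: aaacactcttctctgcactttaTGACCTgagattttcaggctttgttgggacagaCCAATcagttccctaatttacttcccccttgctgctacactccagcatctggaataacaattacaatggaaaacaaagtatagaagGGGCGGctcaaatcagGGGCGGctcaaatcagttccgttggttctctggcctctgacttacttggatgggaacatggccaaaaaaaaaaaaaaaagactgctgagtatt
Searched on both strands were the GC box GGGCGG, the CCAAT box CCAAT, the TATA box TATAAA, the nuclear receptor half-site AGGTCA and its repeats AGGTCANAGGTCA (spacer of 1, bound by PPAR with RXR) and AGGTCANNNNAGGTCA (spacer of 4, bound by LXR with RXR), each of which contains the half-site. Cd36 held 2 GC boxes, 1 CCAAT box and 1 half-site on the other strand, Slc27a1 held 1 CCAAT box, and the Vldlr window held none of the 6. The windows of the other listed starts, not printed, differed: the second of Vldlr held 1 GC box and 1 CCAAT box, the second of Slc27a1 held 1 GC box, and the last of Slc27a1 held 3 GC boxes and 1 CCAAT box. Of 32817 mouse windows of the same length, 32.7% held a GC box, 33.8% a CCAAT box, 12.4% a TATA box and 14.0% a half-site, while 0.0335% and 0.0152% held the repeats. G and C made up 41.6% of the printed Vldlr window (66.4% of its second), 66.4% of that of Slc27a1 (60.8% and 58.4% of its second and last) and 43.2% of that of Cd36, beside a median of 52.4% over all windows. A match is a run of letters and not a shown binding site.

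The wider uptake list held 68 other genes of the same routes, 54 of which were in the table and 42 of which passed the minimum mean. Of these 42, 6 rose and 1 fell, and the median log2 fold change was -0.058 (against -0.015 over all tested genes, with 9.79% called higher and 3.52% lower). Of the called genes, Scara5 and Ffar2 had no read in 1 group and passed the minimum mean through the other alone. Among 17 tested lipoprotein receptors and their helpers only Dab2 rose, and none fell. Dab2, an adaptor that links lipoprotein receptors to clathrin, had 1009, 895 and 1069.9 normalised reads in LD-low replicates and 1796, 1421 and 2112 in LD-high replicates 1, 2 and 3, without overlap (log2 fold change 0.83, SE 0.15, adjusted p = 0.00429). Sort1, the sortilin gene and the most abundant of this group by read count, had a log2 fold change of -0.19 (adjusted p = 0.197).

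Among 11 tested scavenger receptors Scara5 and Cd163 rose. Scara5, a class A scavenger receptor that binds ferritin, had no read in LD-low libraries and 107, 72.5 and 76.3 normalised reads in LD-high replicates 1, 2 and 3. With 3 reads pooled over the LD-low group as the floor, it was at least 82.4-fold higher in the LD-high group (limma adjusted p = 2.38e-04). Cd163, the haemoglobin scavenger receptor and one of the 7 border macrophage markers, rose from 62.5 ± 15.7 normalised reads to 175 ± 17.8 (SD, n = 3 each, log2 fold change 1.49, SE 0.28, adjusted p = 0.00586). The other 6 border macrophage markers did not pass, and the sum of all 7 was between 1098 and 1409.9 in LD-low and between 1568 and 2414 in LD-high libraries. Cd68, the most abundant by read count, had 35432 ± 3563 and 43474 ± 3042 (log2 fold change 0.30, adjusted p = 0.0656), without overlap. It did not pass the main test, but it was called higher with robust variance, DESeq2, a replicate block or without LD-low replicate 1.

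Of 7 tested genes of lipases, their maturation and their regulators, Pltp rose. Pltp encodes the phospholipid transfer protein, which moves phospholipid between lipoproteins, and had 313, 282 and 311 normalised reads in LD-low replicates and 1362, 1462 and 1982 in LD-high replicates 1, 2 and 3. The gap between the groups exceeded the SD of either (log2 fold change 2.38, SE 0.16, adjusted p = 2.06e-05). Lipa, the lysosomal acid lipase that frees the cholesterol and fatty acids of engulfed lipoproteins, had 7021 ± 334 and 6543 ± 304 (log2 fold change -0.10, adjusted p = 0.479). Lmf1 and Sel1l, which help lipases fold and leave the endoplasmic reticulum, had log2 fold changes of -0.14 and -0.17 (adjusted p = 0.445 and 0.291). Sel1l was the most abundant by read count, at 10782 ± 713 and 9592 ± 1085 normalised reads.

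Among 7 tested fatty acid transporters, acyl carriers and receptors, Dbi and Got2 rose and Ffar2 fell. Dbi, the acyl-CoA-binding protein, rose from 432 ± 186 normalised reads to 1252 ± 258 (SD, n = 3 each, log2 fold change 1.60, SE 0.26, adjusted p = 0.00255). Got2, the mitochondrial aspartate aminotransferase that is also described as a membrane fatty acid-binding protein, rose from 1994 ± 193 to 3097 ± 254 (0.64, SE 0.11, adjusted p = 0.00302) and was the most abundant by read count. Ffar2, a receptor for short-chain fatty acids, had 56.0, 26.6 and 31.5 normalised reads in LD-low replicates and no read in LD-high libraries. Against 3 reads pooled over the LD-high group it was at least 39.9-fold lower there (limma adjusted p = 0.00273), beside the fall of 9 of 10 neutrophil markers, whose part was not tested. Fabp4 and Fabp7, relatives of Fabp3 and Fabp5, stayed below the minimum mean, and their highest library reached 7.93 and 4.53 normalised reads. The 6 rises of the wider list stand beside choroid plexus markers that rose by a median of 4.60 on the log2 scale, and the part of those markers' source was not tested.

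**Figure D3:**
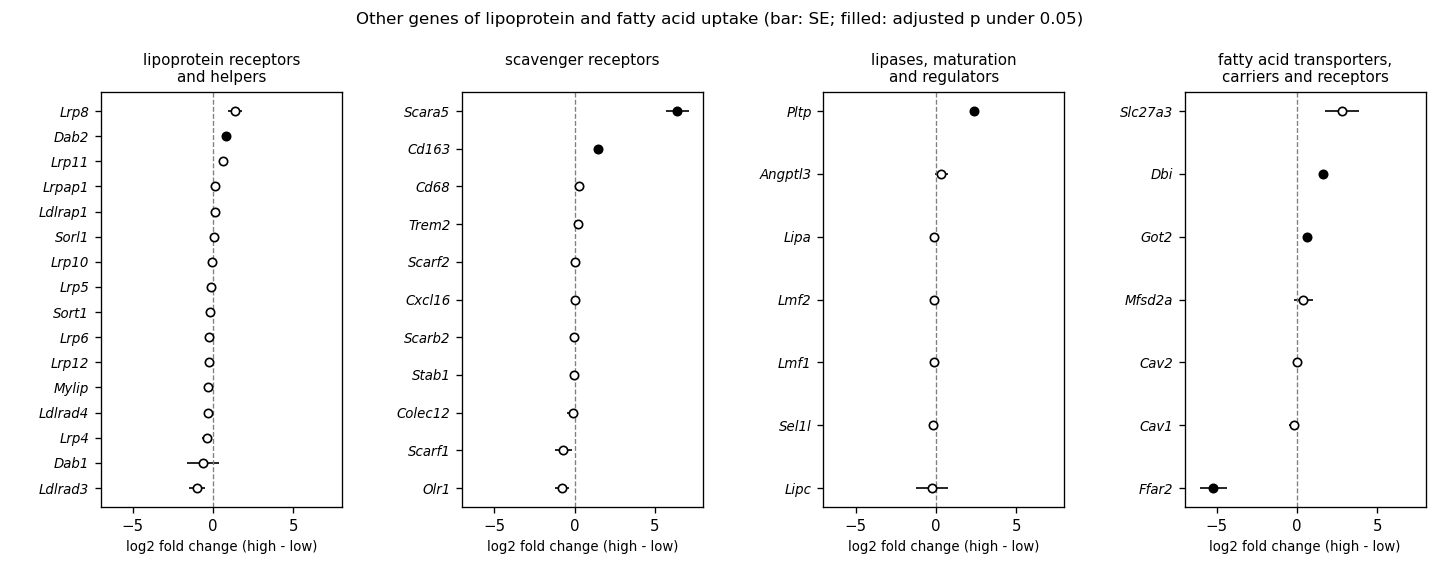
Log2 fold change (LD-high minus LD-low, bar: SE) of 41 of the 42 tested genes of the wider uptake list in 4 groups, filled where the adjusted p is under 0.05. Scara5 (6.41), Pltp (2.38), Dbi (1.60), Cd163 (1.49), Dab2 (0.83) and Got2 (0.64) are filled on the right and Ffar2 (-5.22) on the left; the fitted values of Scara5 and Ffar2, which have no read in 1 group, depend on the pseudocount.

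Genes most like each changed uptake gene were ranked over the 6 libraries by the root mean square difference of centred log2(value + 1), leaving out predicted and clone names. For Vldlr, whose own values deviate from their mean by 3.20, these were Igfn1 (difference 0.225), Il17re (0.366) and Rd3 (0.368). Igfn1 had 11.4, 1.07 and 0 normalised reads in LD-low replicates, as Vldlr did, and 128, 92.9 and 221 in LD-high replicates 1, 2 and 3. Fabp3 (own deviation 0.880) had Dync2li1 (0.0459), Gpc4 (0.111) and Pcbp3 (0.113) nearest to it, and Slc27a1 (0.315) had Lyrm5 (0.0475), Gnas (0.0514) and Dhrs13 (0.0740). Nearest to Cd36 (0.906) were Mybph (0.135), E2f2 (0.136) and Hells (0.202). All of these libraries share the split between 2 groups, so many genes that differ between the groups lie close in this measure.

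**Figure D4:**
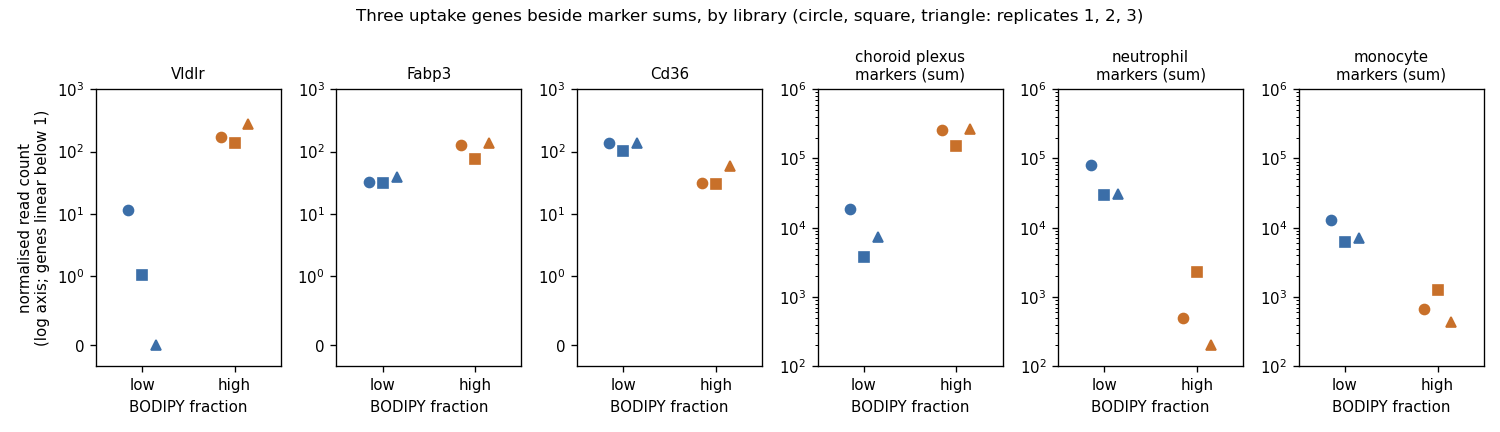
Normalised read counts by library of Vldlr, Fabp3 and Cd36 (log axis, linear below 1) and sums of the markers of choroid plexus, neutrophil and monocyte (log axis), LD-low in blue and LD-high in orange. In LD-high libraries Vldlr, Fabp3 and the choroid plexus sum (152699 to 267159) are high. Cd36 and the neutrophil sum (204 to 2307) are low there. All of these follow the split between the 2 groups, and the part of the markers' source in the gene values was not tested. Chil3 makes up most of the monocyte sum in LD-low libraries. LD-high replicate 3 is highest in Cd36 within its group only, and lowest of the 6 libraries in both the neutrophil and the monocyte sum.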

How the data were processed

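Gene expression was measured by RNA sequencing in 6 libraries. Per the series' design text and the submitters' processing notes, cDNA came from the SmartSeq v4 kit and libraries from Nextera XT, reads of 100 bases from both ends were mapped with STAR 2.5.3a, which also counted reads per gene, and DESeq2 with standard settings was used by the authors. The design text names mm10, while the notes list mm9 beside it; the sources used here give neither the annotation nor the strand column. As deposited by the authors, the values are a signal, namely reads per gene over a size factor for each library. Reads could be recovered as whole numbers, since 100% of values were whole multiples of the smallest value of the library within 0.01 read (largest distance 0.00116).

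Genes were tested with limma 3.58.1 in R 4.3.3 (two-sided, variance trend, no block) on log2(value + 1). The test covered 12821 genes whose mean over the 6 libraries reached 10, with Benjamini-Hochberg adjustment over all of them. edgeR 4.0.16 and DESeq2 1.42.0 on recovered reads (1642 and 2132 genes called, against 1706 by limma), other pseudocounts, filters and scalings, a replicate block and leaving out each library were alternatives. An exact two-sided permutation test of 3 against 3 libraries cannot go below 0.1, which Vldlr, Cd36, Fabp3, Slc27a1 and Slc27a4 reached. The code was tested on simulated data. Amplified reads are not independent molecules, so intervals and floors cover counting error alone. Coordinates and exon lengths come from GENCODE M21 (GRCm38, the assembly of mm10), in which 15532 symbols (96.0%) were found. A date stands in place of 24 symbols. Named genes are the 10 members, Grn, each called gene of the wider list with the most abundant of each of its groups, and the 3 genes most like each called member. The other genes named (Lipa, Lmf1, Fabp4, Fabp7, Zcchc17 and single markers) were chosen after their values were seen. The values of 1 gene of the wider list, which counts in its totals, are not reported here. The members and lists were chosen with earlier results of these data known.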

Additional observations from a re-analysis of the deposited data

How the results depend on the processing

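Of 150 values of the 10 members under 15 alternatives each, 140 kept their direction and their side of the threshold, 6 lost a call, 1 gained one and 3 turned in sign. All 105 values of the 7 called genes of the wider list kept theirs; these were added after seeing the data. The Vldlr call held under all 15 (adjusted p between 6.30e-05 and 0.0103, log2 fold change 4.59 with a pseudocount of 5 to 7.03). Signs turned only for members that did not pass: Lrp1, which ranged from -0.092 to 0.067 with 1 library left out (0.039 without LD-high replicate 1), and Scarb1, which ranged from -0.28 to 0.0083.

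Leaving out 1 library at a time, members called higher numbered 1 to 3 and lower 0 to 1. Wider-list genes called higher numbered 6 to 9 and lower 1 to 2. All genes called higher numbered 689 to 1295 and lower 151 to 523. The lowest were 689 without LD-high replicate 3, and 180, 151 and 219 lower without LD-low replicate 2, LD-low replicate 3 and LD-high replicate 3. Members called higher were 1 without LD-high replicate 3, and members called lower were 0 without LD-low replicate 3. With DESeq2, 3 wider-list genes were lower (Ffar2, Ldlrad4 and Mylip), 2 without LD-low replicate 1 (Ffar2 and Lrp12).

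Same-numbered libraries of the 2 groups deviated from their group means with correlations of 0.110, 0.144 and 0.0728. Libraries of unlike number had correlations from -0.115 to 0.00158, so each library correlated best with its own number. The labels do not pair the libraries, and for that reason the main fit took no pairs. With the replicate number as a block, 760 genes were lower (451 without it) and 1451 higher. Members called lower then numbered 2, Cd36 and Lpl (-1.06, adjusted p = 0.0112), and wider-list genes called lower 3, Ffar2 and Mylip among them. Scaling moved the median of all genes by less than 0.02 on the log2 scale. Depth limits Vldlr in the LD-low group, which rests on 11 reads.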
